A study of Mus musculus with 16 samples.

Results

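Macrophages washed from the airways of uninfected mice were compared between TLR3-KO animals, which lack Toll-like receptor 3, and wild-type (WT) animals. The comparison holds 8 of the 16 RNA-seq libraries of the study, the 4 libraries titled TLR3-KO control and the 4 titled WT control, chosen by their titles alone. Both control groups carry the treatment label none, although the protocol speaks of bacteria or saline. The other 8 libraries, 4 of TLR3-KO and 4 of WT mice, are titled injured. Those mice had received 500 CFU of the bacterium Klebsiella pneumoniae in 30 µl through the hypopharynx, and here they serve as a second pair of groups in which to look at the same genes. The sources used here do not give the animals' age, nor how the knockout allele was made, on which strain it was kept or whether the WT mice were littermates. Nothing in the labels ties a library to 1 mouse, so p-values describe the spread between libraries, which may be technical.

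TLR3 is a receptor of endosomes that recognises double-stranded RNA. It signals through the adaptor TRIF (gene Ticam1) to the kinase Tbk1 and the transcription factor Irf3, which drive interferon genes, and to Traf6 and NF-kB, which drive inflammatory genes. Macrophages of the alveoli live on the airway surface, clear surfactant lipid and inhaled particles, and meet inhaled microbes first.

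The deposited table gives counts for 23159 gene symbols. Control libraries held 36486614 to 59640251 counts each. Levels below are CPM, counts scaled to a common library size with TMM factors, and differences are log2 fold changes of TLR3-KO over WT from edgeR's quasi-likelihood fit of all 16 libraries. A gene is said to have risen, fallen or differed where its Benjamini-Hochberg adjusted p, over the 12455 genes tested, was under 0.05. Counts of genes cover the 11991 tested genes placed on autosomes. Genes of X and Y were left out because the RNA of the TLR3-KO controls was of mixed sex, while the title of the series names male mice. Xist, the transcript behind X inactivation in females, stood at 45.6, 32.2 and 20.1 CPM across TLR3-KO controls 1, 2 and 3, at 0.216 CPM in TLR3-KO control 4, and at 0 to 0.0561 CPM in the WT controls. Summed over 4 genes of the Y chromosome, TLR3-KO controls 1 to 4 held 0.817, 1.18, 23.04 and 158 CPM, against 171 to 211 CPM in the WT controls. In TLR3-KO controls 1 to 3, genotype and the sex of the RNA cannot be told apart. Replicate numbers also carried information: controls with the same number departed from their group means together (correlations 0.48 to 0.61 between genotypes), so calls with the replicate number as a block are given beside the lists described. The libraries were mainly of alveolar macrophages by their markers. The 37 identity genes summed to 44210 to 60600 CPM across TLR3-KO controls and 46351 to 58498 CPM in WT controls, with Chi3l3 making up 34.6%. Of the 9 marker lists of other cell types, the highest sum in any control was 824 CPM (neutrophil, WT control 2).

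Tlr3 itself followed the labels. It was counted at 0.741, 0.278, 0.711 and 0.410 CPM across TLR3-KO controls 1 to 4, against 2.43, 2.96, 4.73 and 4.41 CPM in WT controls 1 to 4. The groups did not overlap, and the TLR3-KO mean was 14.7% of the WT mean (two-sided exact permutation p = 0.0286; no smaller p is possible with 4 libraries a group). In injured mice TLR3-KO libraries averaged 14.0% of the WT mean, again without overlap (exact permutation p = 0.0286). TLR3-KO controls still held 13 to 34 Tlr3 counts each, and a gene total does not show which exons they came from.

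Outside X and Y, 84 genes differed between TLR3-KO and WT controls, which is 0.701% of those tested. Of these, 32 were higher in TLR3-KO (0.267% of genes tested) and 52 were lower (0.434%), and 20 of the higher and 12 of the lower ones differed at least 2-fold. The median log2 fold change over all genes tested was 0.04. Read without adjustment, 2371 genes had p under 0.05, or 19.8% of those tested. With the replicate block, 1159 genes passed (9.67% of those tested), 457 higher (3.81%) and 702 lower (5.85%), among them all 84. The TLR3-KO and WT libraries did not overlap in 82 of the 84, where 7.6% of all genes tested did not overlap. The same libraries chose the 84, so this separation follows largely from the choice and is not separate evidence. Of the 82, 32 were higher in TLR3-KO (3.61% of all genes tested were higher without overlap) and 50 were lower (3.99% of all genes tested).

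The result depended on which libraries entered. In a fit of the 8 control libraries alone, 9 genes passed, all among the 84: Tlr3, Mtmr7, Mfhas1, Hgsnat and Fut10 on chromosome 8, and Wdfy1, Cd59a, Arhgap22 and Tef elsewhere. Among genes that fit did not call were Dhcr7 (adjusted p = 0.0598), Dbp (0.0821), Ppp1r3b (0.0821), Arntl (0.135), Gsr (0.185) and Apoe (0.206), and Acvr1c did not pass its expression filter (all edgeR). With TLR3-KO control 4, the library without Xist, as the single TLR3-KO control, 9 genes passed and 6 of them were among the 84: Wdfy1, Mtmr7, Mfhas1, Hgsnat, Fut10 and Cd59a. With the estimated female share of the RNA as a covariate, 6 passed, 5 of them among the 84. Tlr3 itself did not pass with that covariate (log2 fold change -3.09, adjusted p = 0.125, edgeR). Its log2 fold change with TLR3-KO control 4 alone was -3.14. A lost call in these fits therefore does not show that a gene was equal between genotypes. Leaving out 1 control moved the count between 14, without WT control 1 or WT control 2, and 437, without TLR3-KO control 2. Each of the 84 kept its sign when any 1 control library was left out. This was nearly fixed in advance, since the groups of 82 did not overlap. Of the 84, 13 passed in all 8 such fits, which reuse the libraries that chose them. Those 13 were Tlr3, Mtmr7, Mfhas1, Hgsnat, Fut10, Gsr and Ppp1r3b on chromosome 8, and Wdfy1, Acvr1c, Cd59a, Dbp, Dhcr7 and Stam2 elsewhere.

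Of 4 classes by position, the genes nearest to Tlr3 on chromosome 8 had the highest share called. Tlr3 lies at 45395665 to 45411080 in mm10. Within 10 Mb of its start, 8 of 47 tested genes passed (17.0%), and from 10 to 30 Mb 7 of 200 did (3.5%). Further away on chromosome 8 the count was 1 of 433 (0.231%), and on the other autosomes it was 68 of 11311 (0.601%). Of the 15 within 30 Mb, 5 were higher and 10 lower in TLR3-KO. In the fit with TLR3-KO control 4 alone, 4 genes within 30 Mb passed, and with the replicate block 43 did. Loss of Tlr3 and a position beside it cannot be told apart in this design.

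**Figure D1:**
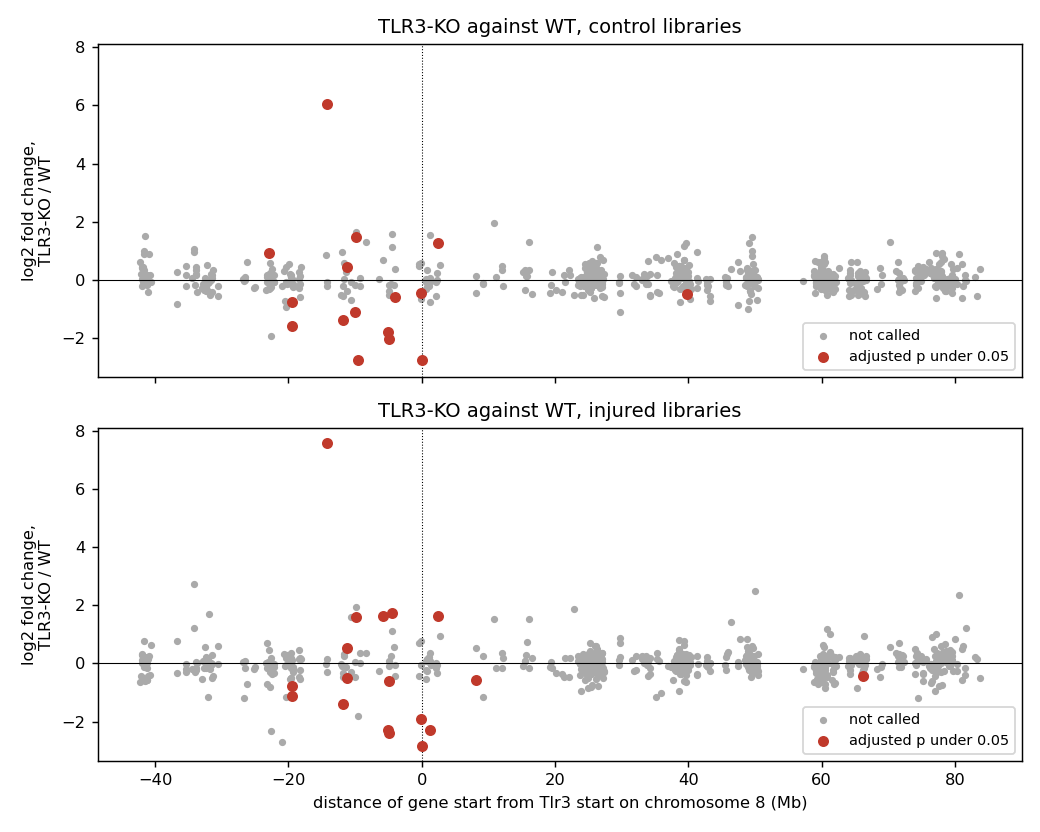
Log2 fold change of TLR3-KO over WT for each tested gene of chromosome 8, by the distance of its start from that of Tlr3 in Mb (dotted line), in control libraries (upper panel) and injured libraries (lower panel). Red points passed an adjusted p of 0.05; in controls 15 of the 16 red points lie within 30 Mb of Tlr3.

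Mtmr7 (8:40551095-40634797), a phosphatase of phosphoinositide lipids, stood at 16.6, 17.2, 19.8 and 15.6 CPM across TLR3-KO controls 1 to 4 and at 81.8, 73.9, 56.5 and 67.5 CPM in WT controls 1 to 4. Every TLR3-KO library was below every WT library, and the level fell by 2.02 on the log2 scale (SE 0.13, edgeR adjusted p = 3.04e-07). In injured libraries the log2 fold change was -2.40 (SE 0.13, edgeR adjusted p = 2.86e-08).

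Hgsnat (8:25944453-25976753), the lysosomal acetyltransferase that heparan sulfate breakdown needs, was counted at 51.7, 50.8, 52.6 and 46.3 CPM across TLR3-KO controls against 129, 128, 168 and 175 CPM in WT controls. The TLR3-KO libraries lay close together and the WT libraries split into a lower and a higher pair, all above them (log2 fold change -1.58, SE 0.12, edgeR adjusted p = 2.02e-06). After injury its log2 fold change was -1.13 (edgeR adjusted p = 0.000115). Asah1 (8:41340197-41374773), the lysosomal acid ceramidase, fell less. It averaged 348 ± 51.3 CPM across TLR3-KO controls and 522 ± 23.3 CPM in WT controls (SD, n = 4 each; log2 fold change -0.59, edgeR adjusted p = 0.0234), and it alone passed among the 35 tested genes of the lysosome list, which does not hold Hgsnat (2 with the block, both lower).

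Gsr (8:33652523-33698163), glutathione reductase, which restores reduced glutathione, was counted at 272, 251, 555 and 436 CPM across TLR3-KO controls 1 to 4 and at 787, 824, 1201 and 1134 CPM in WT controls 1 to 4. In both genotypes controls 3 and 4 were higher than controls 1 and 2, and the genotypes did not overlap (log2 fold change -1.38, SE 0.23, edgeR adjusted p = 0.0133, and 0.000106 with the block). It was the member that fell among 31 antioxidant and NRF2 genes, whose median log2 fold change was 0.03. With the block 2 of the list were higher and 1 lower, where 3.81% and 5.85% of all genes tested were. In injured mice it stood at 287 to 311 CPM across TLR3-KO and 602 to 962 CPM in WT libraries.

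Ppp1r3b (8:35375739-35388139), which brings a phosphatase to glycogen, averaged 17.3 ± 3.40 CPM across TLR3-KO controls and 37.1 ± 5.49 CPM in WT controls (SD, n = 4 each; log2 fold change -1.10, edgeR adjusted p = 0.00136). In injured libraries its log2 fold change was -0.46 and did not pass (edgeR adjusted p = 0.156). Cyp4v3 (8:45304944-45333216), a fatty acid hydroxylase whose gene lies beside Tlr3, stood at 82.4 to 99.1 CPM across TLR3-KO controls and 112 to 133 CPM in WT controls (log2 fold change -0.44, edgeR adjusted p = 0.0448). Injured libraries overlapped for it, with a log2 fold change of -0.07.

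Other neighbours were higher in TLR3-KO. Mfhas1 (8:35587798-35679449), a leucine-rich repeat protein, was counted at 71.3, 69.7, 68.2 and 61.3 CPM across TLR3-KO controls and at 25.4, 23.9, 21.7 and 26.6 CPM in WT controls. No library came near the other genotype (log2 fold change 1.47, SE 0.11, edgeR adjusted p = 2.02e-06), and the injured libraries gave 1.60. Wwc2 (8:47823959-47990924), a scaffold of the Hippo pathway, averaged 26.4 ± 9.39 CPM across TLR3-KO controls and 10.9 ± 3.03 CPM in WT controls (SD, n = 4 each; log2 fold change 1.27, edgeR adjusted p = 0.0366). For Wwc2 controls 1 and 2 exceeded controls 3 and 4 within each genotype.

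Fut10 (8:31187331-31261738), of the fucosyltransferase family, was close to undetected in WT. The 4 TLR3-KO controls held 1.97, 1.65, 1.67 and 1.81 CPM, while the WT controls held 0.0187, 0, 0 and 0.0802 CPM. These are 318 counts in TLR3-KO and 4 in WT, a depth-scaled ratio of 79.5 (95% exact interval 30.7 to 293, for counting error only). Injured libraries repeated the pattern, with 2.12 to 3.00 CPM across TLR3-KO and at most 0.0218 CPM in WT. Low counts also mark Efha2 (8:40307458-40386308), of the family that gates mitochondrial calcium uptake, at 0.484 ± 0.212 CPM across TLR3-KO and 1.66 ± 0.407 CPM in WT controls (SD, n = 4 each; edgeR adjusted p = 0.0311). Cldn23 (8:35824712-35826559), a claudin of tight junctions, had 30 counts in TLR3-KO and 188 in WT controls, and its log2 fold change of -2.75 passed with an adjusted p of 0.0340 (edgeR).

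The last 3 of the 15 were chosen for mention after their values were seen. AI316807 and Leprotl1 were higher, with log2 fold changes of 0.93 and 0.45, and 4930444A02Rik was lower, at -0.77. Leprotl1 and 4930444A02Rik also passed in injured libraries, with 0.53 and -0.79.

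Away from chromosome 8, the lowest p belonged to Wdfy1 on chromosome 1 (1:79702262-79776143). Wdfy1 encodes an endosomal protein that has been described to bring TRIF to TLR3 and TLR4. It was counted at 11.2, 14.4, 12.8 and 16.7 CPM across TLR3-KO controls 1 to 4 and at 79.6, 77.6, 66.9 and 69.4 CPM in WT controls 1 to 4. The TLR3-KO mean was 18.8% of the WT mean, with no TLR3-KO library near the WT range (log2 fold change -2.41, SE 0.13, edgeR adjusted p = 3.17e-08). Injured libraries held 10.4 to 14.1 CPM across TLR3-KO and 63.7 to 67.3 CPM in WT (log2 fold change -2.46, edgeR adjusted p = 2.5e-08). It passed with TLR3-KO control 4 alone (adjusted p = 0.000517) and with the female share as covariate (adjusted p = 0.000242).

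**Figure D2:**
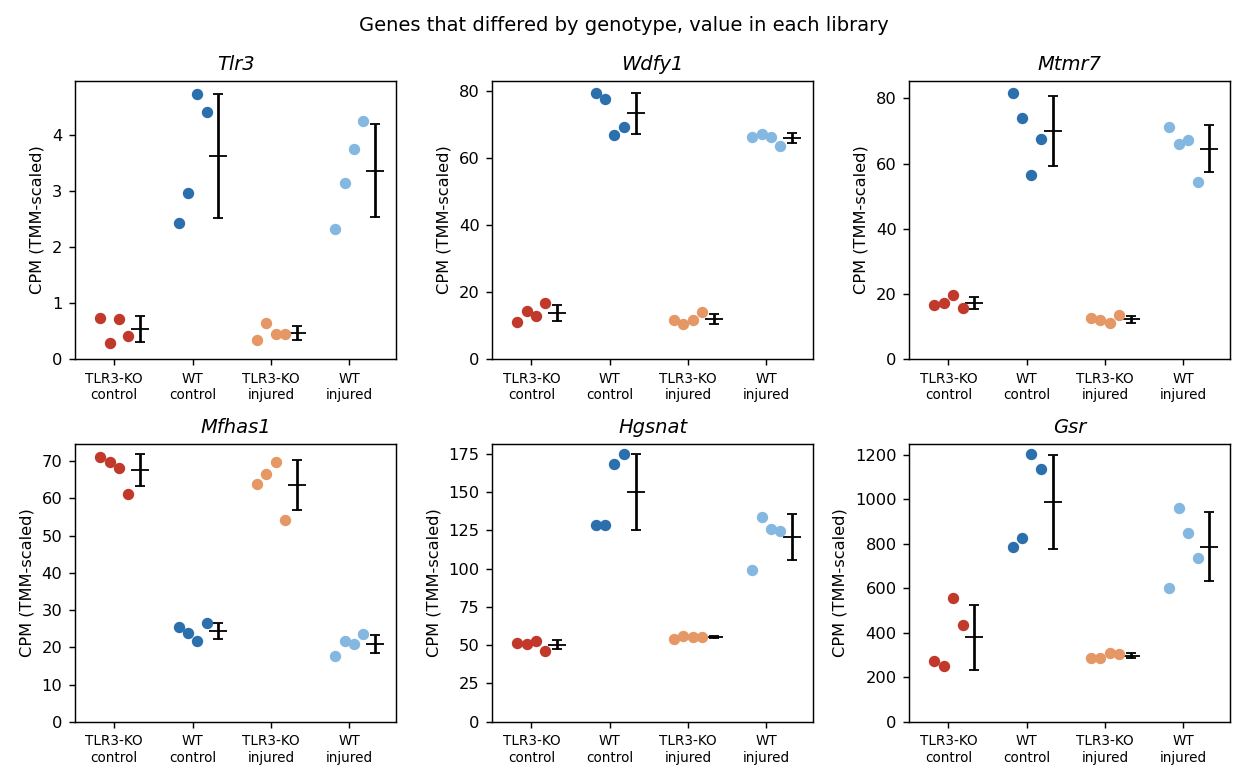
CPM of 6 genes in each library (points, in replicate order 1 to 4) with the group mean and SD (bars, n = 4), for TLR3-KO and WT controls and TLR3-KO and WT injured libraries. Tlr3, Wdfy1, Mtmr7, Hgsnat and Gsr are lower and Mfhas1 is higher in every TLR3-KO library than in any WT library of the same state.

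The rest of the TLR3 pathway gave no call in edgeR without the block, and some with the block or DESeq2. Of 21 tested members of Tlr3 and TRIF signalling, Tlr3 alone passed, and 15 had negative log2 fold changes, with a median of -0.09 against 0.04 over all genes tested. With the block 5 passed, Tlr3 among them, all lower, where 5.85% of all genes tested did. DESeq2 called 4 lower, Tlr3 among them, and 514 lower over all genes tested. An unadjusted p under 0.05 (edgeR) was found for 6 lower and 1 higher, where 1213 and 1158 of all 11991 genes tested had one. Tbk1 was counted at 117 to 145 CPM across TLR3-KO controls and 170 to 184 CPM in WT controls. These ranges did not overlap, but the adjusted p was 0.0568 (edgeR; log2 fold change -0.41) and 0.0178 with the block. Peli1, a ubiquitin ligase that acts on TRIF signalling, had a log2 fold change of -0.50 (adjusted p = 0.0808, edgeR), and Traf6 one of -0.53 (adjusted p = 0.101, edgeR). Both passed with the block, at 0.0188 and 0.0290. Ticam1 averaged 32.1 ± 14.2 CPM across TLR3-KO and 30.4 ± 10.3 CPM in WT controls, and Irf3 averaged 54.2 ± 8.82 CPM across TLR3-KO and 44.7 ± 10.7 CPM in WT controls (SD, n = 4 each), both without passing.

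Genes downstream of interferon and NF-kB gave almost no calls in edgeR without the block. Among 37 type I interferon-stimulated genes none passed in edgeR, 6 had an unadjusted p under 0.05, all lower in TLR3-KO, and DESeq2 and the block called 1 each. As a share, 19.8% of all genes tested had such a p. Their median log2 fold change was -0.34. Among 33 inflammatory cytokine and NF-kB genes none passed, 9 had an unadjusted p under 0.05, all lower, DESeq2 called 2, and the block gave 7, all lower. Over all 11991 genes tested, 1213 were lower with such a p, DESeq2 called 514 lower, and the block called 5.85% lower. The median of the list was -0.55 and 27 of the 33 were negative, where 45.1% of all genes tested were negative. Tnfaip3, the inhibitor of NF-kB also called A20, was counted at 121, 156, 61.5 and 93.9 CPM across TLR3-KO controls 1 to 4 and at 327, 272, 103 and 172 CPM in WT controls 1 to 4. Each TLR3-KO library was below the WT library of the same number while the groups overlapped (adjusted p = 0.0996, and 0.00193 with the block, edgeR). In both genotypes, controls 1 and 2 stood above 3 and 4. With controls 1 and 2 alone the median of the list was -0.59, and with controls 3 and 4 alone it was -0.20. It was -0.85 with TLR3-KO control 4 as the single TLR3-KO control, and -0.43 without that library.

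Among 24 CXC and CC chemokines none passed in edgeR, 5 had an unadjusted p under 0.05 (19.8% of all genes tested did), and the block called 1. Cxcl1, which draws neutrophils, was counted at 17.4, 7.30, 10.4 and 9.45 CPM across TLR3-KO controls 1 to 4 and at 6.66, 4.10, 0.283 and 0.374 CPM in WT controls 1 to 4 (log2 fold change 1.94, adjusted p = 0.161, edgeR). Cxcl3, of the same family, was counted at 115, 34.4, 43.0 and 18.4 CPM across TLR3-KO controls 1 to 4 and at 690, 512, 19.6 and 29.6 CPM in WT controls 1 to 4 (log2 fold change -2.57, adjusted p = 0.147, edgeR). Its negative value came from WT controls 1 and 2: with controls 3 and 4 alone it was 0.31.

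Of 31 genes induced by interferon gamma, Gbp6 passed, and with the block 2 did, both lower. It is a guanylate-binding protein of cell-autonomous defence, and reads of this multigene family may be shared among its copies. Gbp6 was counted at 0.587, 0.642, 0.879 and 0.647 CPM across TLR3-KO controls and at 4.25, 3.85, 1.23 and 2.19 CPM in WT controls (log2 fold change -2.06, edgeR adjusted p = 0.0478). Gbp2, another member, had a log2 fold change of -1.53 and overlapped between genotypes (adjusted p = 0.133, edgeR).

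The circadian clock list gave 3 called genes of 17, where 0.701% of all genes tested were called. The clock is a feedback loop in which Clock and Arntl (also known as Bmal1) switch on Per and Cry genes, whose products shut them off, and it drives output factors such as Dbp and Tef. Dbp and Tef were higher and Arntl was lower in TLR3-KO controls. Upstream windows of 250 bases (RefSeq, GRCm38.p6) of the 3 called genes are shown because Clock and Arntl are known to bind the E-box CACGTG, here in capitals. The first annotated start site is used for each.
Dbp, + strand, chr7:45704997-45705246: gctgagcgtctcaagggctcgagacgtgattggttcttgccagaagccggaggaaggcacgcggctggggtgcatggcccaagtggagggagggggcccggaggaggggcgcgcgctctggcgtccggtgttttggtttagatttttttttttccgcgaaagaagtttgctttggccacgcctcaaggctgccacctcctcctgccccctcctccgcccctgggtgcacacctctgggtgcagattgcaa
Tef, + strand, chr15:81802423-81802672: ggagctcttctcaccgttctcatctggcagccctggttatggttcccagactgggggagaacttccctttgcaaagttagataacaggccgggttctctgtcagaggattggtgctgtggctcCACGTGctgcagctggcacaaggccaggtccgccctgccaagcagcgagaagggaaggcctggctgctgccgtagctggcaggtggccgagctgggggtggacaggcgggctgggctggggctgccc
Arntl, + strand, chr7:113207215-113207464: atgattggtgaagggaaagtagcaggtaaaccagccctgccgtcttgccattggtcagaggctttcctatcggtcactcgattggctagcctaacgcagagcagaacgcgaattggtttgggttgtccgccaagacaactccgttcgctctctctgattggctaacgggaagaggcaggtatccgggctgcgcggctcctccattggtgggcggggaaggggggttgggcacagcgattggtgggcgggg
These 6 letters, which read the same on both strands, occur in the Tef window, 127 bases before the start, and in neither of the others. They occur in 6.02% of 32851 windows of the same length over all genes.

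Dbp was counted at 3.14, 4.00, 6.84 and 3.90 CPM across TLR3-KO controls 1 to 4 and at 1.18, 1.37, 1.36 and 1.36 CPM in WT controls 1 to 4. Every TLR3-KO library exceeded every WT library, with TLR3-KO control 3 highest (log2 fold change 1.76, SE 0.23, edgeR adjusted p = 0.00138). Dbp also passed after injury, at 5.21 to 7.53 CPM across TLR3-KO and 1.92 to 3.07 CPM in WT libraries (log2 fold change 1.22, edgeR adjusted p = 0.0253). Tef was counted at 62.2, 66.3, 86.9 and 69.4 CPM across TLR3-KO controls and at 39.3, 36.2, 35.4 and 36.9 CPM in WT controls. The WT libraries lay within a narrow band and TLR3-KO control 3 was again highest (log2 fold change 0.95, SE 0.19, edgeR adjusted p = 0.0344).

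Arntl went the other way. It was counted at 11.0, 12.6, 15.4 and 10.2 CPM across TLR3-KO controls and at 25.2, 27.4, 22.7 and 19.9 CPM in WT controls, without overlap (log2 fold change -0.95, SE 0.15, edgeR adjusted p = 0.0118). After injury its groups overlapped, with a log2 fold change of -0.17 (adjusted p = 0.599). Cry2 was counted at 14.8 to 20.1 CPM across TLR3-KO controls and 7.25 to 12.6 CPM in WT controls (log2 fold change 0.75, adjusted p = 0.0501, edgeR; 0.00319 with the block). Per1 and Clock, chosen for mention after their values were seen, had log2 fold changes of 0.66 and -0.60 and did not pass (adjusted p = 0.0728 and 0.134, edgeR). With the block 5 clock genes passed higher and 1 lower, where 3.81% and 5.85% of all genes tested did. The median of the list was 0.04, as over all genes tested, with 11 members positive and 6 negative. The hour of sampling is not in the sources used here, and its part in these values was not tested.

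**Figure D3:**
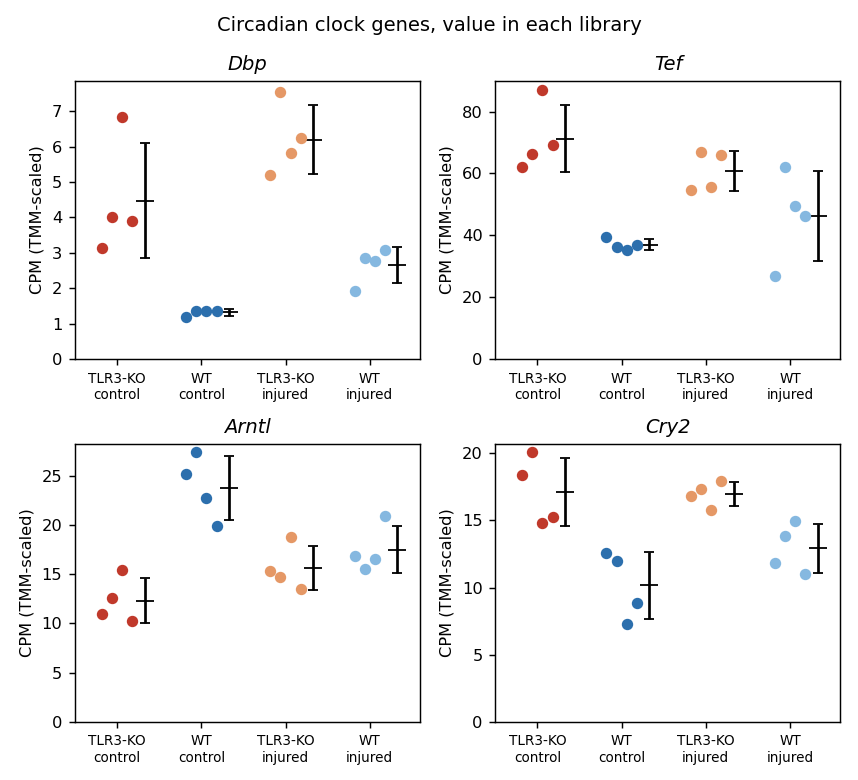
CPM of Dbp, Tef, Arntl and Cry2 in each library (points, in replicate order 1 to 4) with the group mean and SD (bars, n = 4), for TLR3-KO and WT controls and TLR3-KO and WT injured libraries. In controls the genotypes do not overlap for any of the 4 genes; in injured libraries they overlap for Tef and Arntl.

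Enzymes of cholesterol synthesis were lower in TLR3-KO controls where they differed. Of 24 tested genes of the list 3 passed, all lower, where 0.434% of all genes tested were called lower. Negative log2 fold changes were found for 18, where 45.1% of all genes tested were negative. The median was -0.35. It was -0.09 with TLR3-KO control 4, the library without Xist, as the single TLR3-KO control, and -0.46 without that library. With the block 8 passed, all lower, where 5.85% of all genes tested did. DESeq2 called 9 lower, and 514 lower over all genes tested. Dhcr7, which makes cholesterol in the last step of one branch, was counted at 59.3, 59.5, 58.8 and 71.4 CPM across TLR3-KO controls and at 111, 103, 143 and 112 CPM in WT controls (log2 fold change -0.91, SE 0.12, edgeR adjusted p = 0.00138). The groups stayed apart, with TLR3-KO control 4 nearest to WT, and Dhcr7 passed after injury too (log2 fold change -0.65, edgeR adjusted p = 0.0289).

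Hsd17b7, a reductase of sterol synthesis, stood at 69.9 to 83.8 CPM across TLR3-KO controls and 107 to 142 CPM in WT controls (log2 fold change -0.69, edgeR adjusted p = 0.0448). Hmgcs1, an early enzyme of the sterol pathway, was counted at 446, 529, 476 and 578 CPM across TLR3-KO controls and at 832, 779, 819 and 699 CPM in WT controls (log2 fold change -0.62, SE 0.14, edgeR adjusted p = 0.0497). Neither differed after injury, with log2 fold changes of 0.03 and -0.03. Of the members that missed the threshold, Sc4mol had a log2 fold change of -0.46 (adjusted p = 0.0746, edgeR) with groups that did not overlap. Sc4mol starts 19.3 Mb from the start of Tlr3 on chromosome 8, so loss of Tlr3 and position cannot be told apart for it. Cyp51, a sterol demethylase named after its values were seen, had -0.46 (adjusted p = 0.0761, edgeR).

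The window before the start of Hmgcs1 is shown because sterol-response factors are known to bind elements in this promoter; the letters TCACCCCAC, in capitals, were searched on both strands.
Hmgcs1, + strand, chr13:119690101-119690350: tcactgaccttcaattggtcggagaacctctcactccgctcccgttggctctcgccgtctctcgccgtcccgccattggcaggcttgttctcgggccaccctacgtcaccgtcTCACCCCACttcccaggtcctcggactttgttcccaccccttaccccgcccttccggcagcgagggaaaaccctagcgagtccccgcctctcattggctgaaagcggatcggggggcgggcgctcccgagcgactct
They occur 137 bases before the start of Hmgcs1, in no window of Dhcr7 or Hsd17b7, and in 0.496% of the 32851 windows.

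Apoe, the apolipoprotein that macrophages secrete to carry cholesterol out, was counted at 107, 59.8, 113 and 58.0 CPM across TLR3-KO controls 1 to 4 and at 41.3, 32.9, 44.8 and 34.6 CPM in WT controls 1 to 4. TLR3-KO controls 1 and 3 stood apart from 2 and 4, and all exceeded WT (log2 fold change 1.14, SE 0.22, edgeR adjusted p = 0.0340). Apoc1, whose gene is its neighbour on chromosome 7, had a log2 fold change of 1.73 and did not pass (adjusted p = 0.0568, and 0.0148 with the block, edgeR). Neither differed after injury: Apoe had a log2 fold change of -0.08 and Apoc1 one of -0.80. Over the 37 tested genes of lipid efflux, storage and handling, Apoe alone passed and the median was 0.04. With the block 4 of these passed higher and 2 lower, where 3.81% and 5.85% of all genes tested did. Osbpl3, an oxysterol-binding relative, fell to 25.7 to 29.8 CPM across TLR3-KO controls, against 40.6 to 106 CPM in WT controls (log2 fold change -1.41, edgeR adjusted p = 0.0311). Osbpl8, a lipid exchanger at membrane contacts that was named after its values were seen, had -0.90 (edgeR adjusted p = 0.0448).

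Some genes of other roles that rose rest on few counts. Acvr1c, the activin receptor ALK7, was counted at 0.281, 0.385, 0.251 and 0.194 CPM across TLR3-KO controls and at 0.0187, 0, 0 and 0 CPM in WT controls. These are 50 counts against 1, a ratio of 50.0 (95% exact interval 8.57 to 2013, for counting error only; edgeR adjusted p = 0.00102). After injury the ranges were 0.0964 to 0.242 CPM across TLR3-KO and 0.0511 to 0.0655 CPM in WT, and the difference did not pass (adjusted p = 0.217). Cd59a, which blocks the pore of complement on the cell's own membrane, was counted at 1.46, 1.41, 0.649 and 1.14 CPM across TLR3-KO controls and at 0.131, 0.0759, 0.103 and 0.214 CPM in WT controls. It was the member of 17 complement genes to pass (log2 fold change 3.13, edgeR adjusted p = 0.00102), and it passed after injury (log2 fold change 2.41, edgeR adjusted p = 0.00545). With the block 3 of the 17 passed, all higher, where 3.81% of all genes tested did. Camk2b, a calcium-dependent kinase named after its values were seen, had 168 counts in TLR3-KO and 6 in WT controls (edgeR adjusted p = 0.0234).

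Few of the remaining genes passed in both states. Arhgap22, which switches off Rac, averaged 9.72 ± 2.29 CPM across TLR3-KO controls and 3.47 ± 0.438 CPM in WT controls (SD, n = 4 each; log2 fold change 1.49, edgeR adjusted p = 0.0202), and 1.35 after injury (edgeR adjusted p = 0.0347). Adcy4, an adenylate cyclase, averaged 5.59 ± 2.44 CPM across TLR3-KO and 2.18 ± 0.292 CPM in WT controls (SD, n = 4 each; log2 fold change 1.36, edgeR adjusted p = 0.0231), and 1.66 after injury (edgeR adjusted p = 0.00515). Cd101, an inhibitory surface protein of leukocytes, and Gm6498 also passed in both states, at 0.88 and -1.57 in controls and 0.76 and -1.88 after injury. Both were named after their values were seen.

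Gpd1, which links glycolysis to glycerol lipids, was counted at 59.2, 72.1, 76.7 and 55.3 CPM across TLR3-KO controls and at 20.4, 18.5, 38.1 and 35.3 CPM in WT controls (log2 fold change 1.23, SE 0.22, edgeR adjusted p = 0.0202). WT controls 3 and 4 stood above 1 and 2 but below every TLR3-KO library, and after injury the log2 fold change was 0.19. Socs2, a brake on cytokine receptors, stood at 17.9 to 22.2 CPM across TLR3-KO controls and 11.1 to 12.9 CPM in WT controls (log2 fold change 0.77, edgeR adjusted p = 0.0344). Wfdc10, Klk8, Gm11545, Adam33 and Tmem149 were higher by 0.99 to 1.73 on the log2 scale. In injured libraries Klk8 had a log2 fold change of 0.78, while Wfdc10, Gm11545, Adam33 and Tmem149 had -0.46 to -0.10. None of them passed there. All 5 lost the call when the TLR3-KO side was reduced to control 4, with log2 fold changes of 0.52 to 1.65.

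Among those that fell, Adam17, the protease that sheds TNF and its receptors, was counted at 279, 351, 214 and 246 CPM across TLR3-KO controls 1 to 4 and at 683, 635, 399 and 438 CPM in WT controls 1 to 4. Controls 1 and 2 exceeded 3 and 4 in both genotypes, and the genotypes did not overlap (log2 fold change -0.98, SE 0.20, edgeR adjusted p = 0.0390). Adam9, a related protease, had -0.73 and did not pass (adjusted p = 0.0610, and 0.00824 with the block, edgeR). Adam9 starts at -20.4 Mb from the start of Tlr3 on chromosome 8. Spred1, an inhibitor of Ras signalling, Slc7a8, an amino acid exchanger, and Gdpd1, which acts on lysophospholipids, had log2 fold changes of -0.97, -0.87 and -0.95.

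The following 5 genes that fell were named after their values were seen. Vps35 and Vps26a, subunits of the retromer that returns cargo from endosomes, averaged 364 ± 31.4 and 310.3 ± 14.2 CPM across TLR3-KO controls and 504 ± 25.2 and 400.4 ± 27.0 CPM in WT controls (SD, n = 4 each). Their log2 fold changes were -0.47 and -0.37. Kpna3 and Kpna4, importins of nuclear import, had -0.62 and -0.49. Stam2, which sorts ubiquitinated receptors at endosomes, stood at 84.3 to 92.6 CPM across TLR3-KO controls and 121 to 141 CPM in WT controls (log2 fold change -0.62, edgeR adjusted p = 0.00615). In injured libraries these 5 genes had log2 fold changes of -0.25 to 0.03, and none passed.

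No gene of oxidative phosphorylation passed. Of 37 tested subunits none passed in edgeR, 18 had an unadjusted p under 0.05, all higher in TLR3-KO, and 35 had positive log2 fold changes. Over all 11991 genes tested, 1158 were higher with such a p and 6583 had positive log2 fold changes. The block, DESeq2 and voom also called none of the subunits. The median was 0.33, against 0.04 over all genes tested, and after injury it was -0.04. Ndufs4, a subunit of complex I, was counted at 38.4, 30.6, 40.8 and 42.2 CPM across TLR3-KO controls and at 25.8, 23.7, 33.4 and 25.8 CPM in WT controls (adjusted p = 0.139, edgeR). WT control 3 lay within the TLR3-KO range, so the groups overlapped.

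Genes of antigen presentation by MHC class II varied strongly between libraries. Of 19 genes none passed in edgeR, and DESeq2 called 3 higher, where it called 231 higher of all 11991 genes tested. An unadjusted p under 0.05 was found for 9, all higher, where 1158 of all 11991 genes tested were higher with such a p. With the block 2 passed, both higher, where 3.81% of all genes tested did. H2-Aa was counted at 256, 149, 935 and 308 CPM across TLR3-KO controls 1 to 4 and at 210, 151, 88.0 and 60.4 CPM in WT controls 1 to 4. TLR3-KO control 3 stood far above all others. The median of the list was 0.63, 0.15 with controls 1 and 2 alone, and 0.18 to 0.73 with 1 control left out, lowest without TLR3-KO control 4. Summed dendritic cell markers were 241 to 319 CPM across TLR3-KO controls and 207 to 262 CPM in WT controls, with 19 of 22 markers higher in TLR3-KO by their means (exact permutation p = 0.0571 and 0.571 adjusted over 10 lists). Their part in the class II values was not tested. In bulk RNA, fewer cells of a type and less RNA per cell cannot be told apart.

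T cell markers varied more between libraries than between genotypes. All 22 T cell markers had higher means in TLR3-KO, and their sum was 21.7, 15.8, 53.8 and 55.0 CPM across TLR3-KO controls 1 to 4 and 20.5, 11.7, 17.6 and 35.8 CPM in WT controls 1 to 4. TLR3-KO controls 3 and 4 held most of the difference, and the sums overlapped (exact permutation p = 0.257 and 0.714 adjusted over the 10 lists). Ccr7, which is also in the dendritic cell list, made up 35.9% of the T cell sum. Identity genes of alveolar macrophages had a median log2 fold change of 0.00 over 36 tested, and none passed in edgeR. An unadjusted p under 0.05 was found for 7, where 19.8% of all genes tested had one. The block called 6, where it called 9.67% of all genes tested. The summed level of the identity genes was 52370 ± 7634 CPM across TLR3-KO and 53932 ± 5334 CPM in WT controls (SD, n = 4 each).

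**Figure D4:**
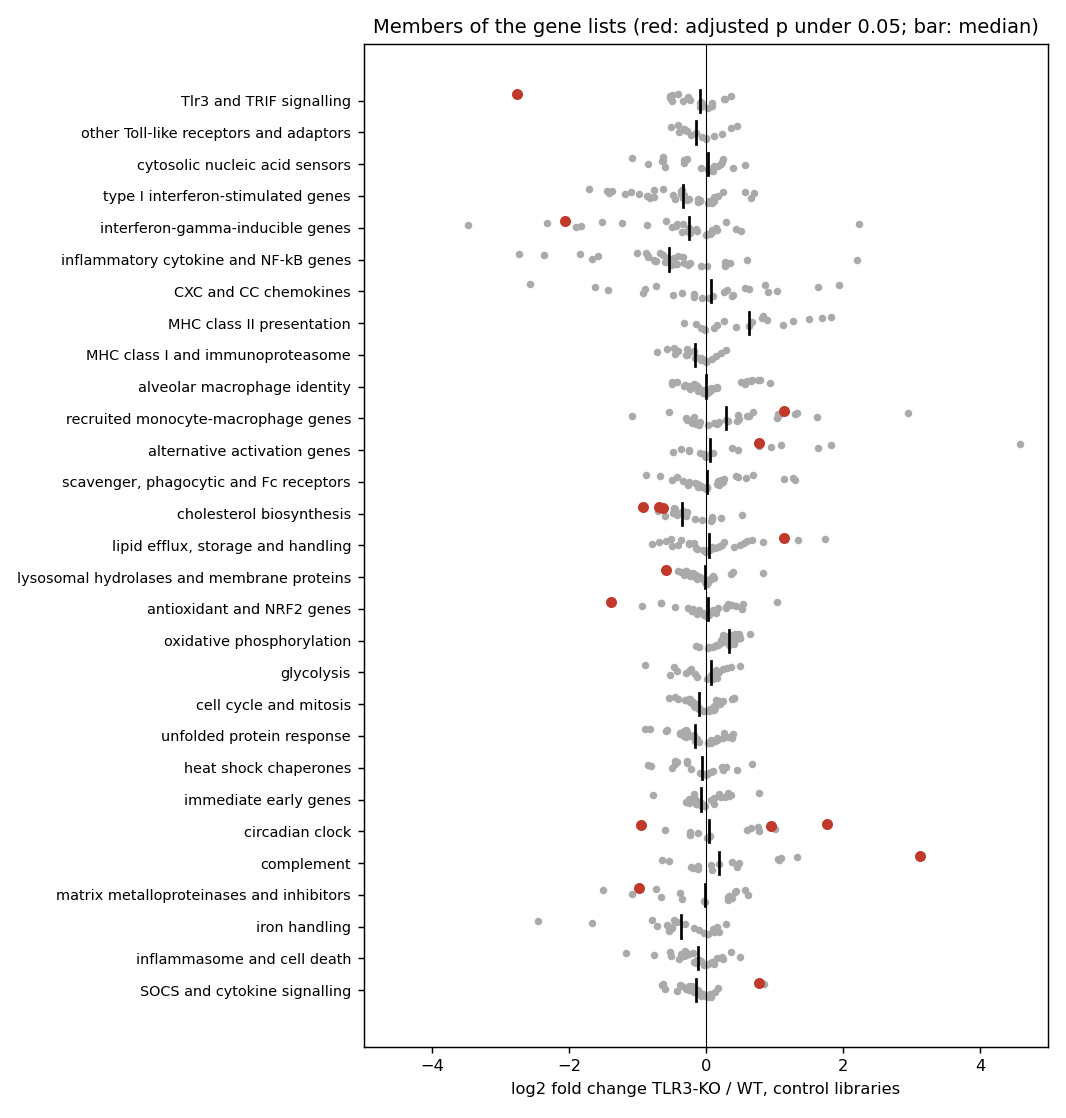
Log2 fold change of TLR3-KO over WT controls for each tested member of 29 gene lists (points) with the list median (black bar). Red points passed an adjusted p of 0.05 over all genes; 35 of 37 oxidative phosphorylation genes lie above 0 without passing, and 18 of 24 cholesterol genes lie below 0, of which 3 passed.

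The injured libraries share no sample with the controls, so they show the same genes in other libraries of the same genotypes. None of the 4 TLR3-KO injured libraries held the Xist of TLR3-KO controls 1 to 3: Xist stood at 0 to 0.132 CPM and the 4 Y genes at 177 to 197 CPM, against 0 to 0.0655 CPM and 201 to 229 CPM in WT injured libraries. Infection and the sex of the TLR3-KO RNA therefore cannot be told apart where controls and injured libraries are set side by side. In injured libraries 76 genes differed between TLR3-KO and WT (0.634% of genes tested). In both states 18 genes passed, all in the same direction, which is 21.4% of the control calls and 23.7% of the injured calls. Of the 84 control genes 70 had the same sign after injury (46.2% of all genes tested did). The 18 were made of 10 genes within 30 Mb of Tlr3 and 8 elsewhere, namely Wdfy1, Cd59a, Dbp, Dhcr7, Arhgap22, Adcy4, Cd101 and Gm6498. With the replicate block for the controls, and the injured libraries fitted without it, 31 genes passed in both.

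The values after injury are given by position, without a test between positions. For the 15 control genes within 30 Mb of Tlr3, all 15 kept their sign after injury. Their median size was 1.38 on the log2 scale in controls and 1.40, in the direction of the controls, after injury. For the 69 elsewhere the medians were 0.79 and 0.19, and 66 of the 69 were smaller after injury than in the controls that chose them. The test of the difference itself, the genotype by injury term, called none of the tested genes in edgeR. Its unadjusted p was under 0.05 for 2124 genes (17.7%), among them 48 of the 84, and the lowest adjusted p was 0.235. So a genotype difference of any 1 of these genes was not shown to differ between uninfected and injured mice.

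**Figure D5:**
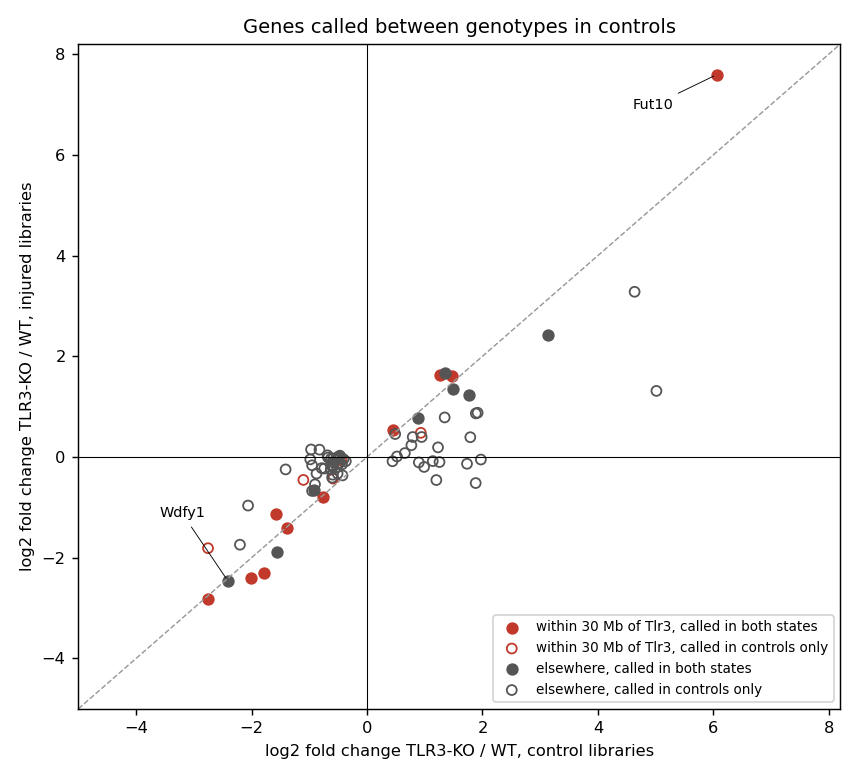
Log2 fold change of TLR3-KO over WT in control libraries (x axis) and injured libraries (y axis) for the 84 genes called in controls, in red within 30 Mb of Tlr3 and grey elsewhere, filled where called in both states; the dashed line marks equal values. All 15 red points have the same sign in both states, and 6 of them are smaller after injury; of the 69 grey points 66 are smaller.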

How the data were processed

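Per the labels' protocols, RNA of lavage macrophages was extracted with the RNeasy kit and sequenced from TruSeq mRNA libraries in pairs of 50 bases. The submitters' processing notes name FastQC 0.11.3, TopHat2 2.0.13 with Bowtie2 2.2.1, Cuffdiff 2.1.1 and the build mm10. The authors deposited whole-number counts per gene symbol, made with HTSeq according to the table's name. Which HTSeq version, strand setting and annotation were used is not given in the sources used here. Genes with near copies or overlapping an antisense gene are therefore uncertain. All 16 columns matched a sample title, and 0 were left over. No 2 libraries of a control group were copies (chi-square per degree of freedom 11.3 to 334.9). The lowest value was that of WT controls 1 and 2, and WT controls 3 and 4 gave 87.3. Among TLR3-KO, controls 1 and 2 gave 60.3 and controls 3 and 4 gave 86.5. All other pairs gave 141 to 335. Whether the libraries of a close pair are independent was not tested.

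Genes were kept by filterByExpr (minimum count 10), scaled by TMM and fitted with 1 coefficient per group in edgeR 4.0.16 (R 4.3.3), which was tested on simulated data. CPM values divide by TMM-scaled library sizes. An SE is the log2 fold change over the square root of F. Symbols were placed with GENCODE M21 and RefSeq GRCm38.p6 (22917 of 23159 matched). The replicate numbers come from the titles. They were taken to pair the controls because every same-numbered pair correlated above 0.1 (0.48 to 0.61, with 7 of 8 libraries matching their own number best); the injured libraries did not pair.

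The genes, lists and tests were chosen with earlier results of these data known. The text names the 12 highest and 12 lowest called genes without overlap whose mean reached 5 CPM in a group, the 10 lowest p-values, called genes within 10 Mb of Tlr3, genes called in both states, up to 4 members of each list and any called member, and says where a gene lies outside this rule. Alternatives were RLE factors, other filters, DESeq2 1.42.0, voom with equal weights (limma 3.58.1), the 8 controls alone, the block, the female share of RNA, subsets of controls and each control left out.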

Additional observations from a re-analysis of the deposited data

Results flagged for a closer look

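Groups of 4 libraries were searched for named genes and for summed marker lists. In 9 of 172 such groups, all 9 of genes, 1 library stood apart by Dixon's ratio (above its 95% critical value). That is about as many as chance gives at 1 in 20. WT control 4 was low for Asah1 at 487 CPM, with the other WT controls at 532 to 536 CPM. WT control 1 held the only WT count of Acvr1c (0.0187 CPM) and was low for Dbp (1.18 CPM, others 1.36 to 1.37 CPM). TLR3-KO control 4 was high for Dhcr7 at 71.4 CPM (others 58.8 to 59.5 CPM). WT control 3 was low for Slc7a8 (109 CPM, others 146 to 151 CPM) and high for Wfdc10 (3.93 CPM, others 2.16 to 2.38 CPM). TLR3-KO control 2 was high for Traf6 (30.5 CPM, others 22.1 to 22.4 CPM), WT control 2 was high for Gm6498 (0.683 CPM, others 0.514 to 0.542 CPM), and TLR3-KO control 3 was high for 4930444A02Rik (16.4 CPM, others 11.3 to 12.2 CPM).

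Xist, on a chromosome that the gene counts leave out, reached 45.6, 32.2 and 20.1 CPM across TLR3-KO controls 1, 2 and 3, above the WT controls, which held 0 to 0.0561 CPM.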

How the results depend on the processing

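The 84 called genes (32 higher, 52 lower) became 142 with RLE factors (100 lower), 9 in a fit of the 8 controls alone (5 higher, 4 lower), 1159 with the replicate block (457 higher, 702 lower), 6 with the female share of RNA (3 higher, 3 lower), 9 with TLR3-KO control 4 alone (6 higher, 3 lower), 228 with controls 1 and 2 (98 higher, 130 lower), 18 with controls 3 and 4 (10 higher, 8 lower) and 745 with DESeq2 (231 higher, 514 lower). Without the filter 57 passed, 33 of them lower. Leaving out 1 control gave 14 to 437 (6 to 145 higher, 8 to 321 lower): 14 without WT control 1 or 2, 412 without WT control 3, 37 without WT control 4, and 28, 437, 45 and 40 without TLR3-KO controls 1 to 4. The cause of these shifts was not tested, beyond fewer samples in the smaller fits; where TLR3-KO control 4 stands alone it is assumed to vary like the other groups.

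The 15 genes within 30 Mb of Tlr3 became 5 (8 controls alone), 43 (block), 4 (female share), 4 (TLR3-KO control 4 alone), 7 (controls 3 and 4) and 33 (DESeq2), and 7 to 27 with 1 control left out. Tlr3 stood at 12.8% to 17.1% of WT with 1 control left out, where the smallest exact p is 0.0571. Genes called in both states numbered 18, and 31 where the controls alone were fitted with the replicate block.

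Cxcl3 turned positive with controls 3 and 4 alone (0.31). Ticam1, at 0.08, turned negative with the female share (-0.62), with TLR3-KO control 4 alone (-0.55), with controls 3 and 4 (-0.081) and in 4 of the 8 fits without 1 control, which ran between -0.20 without TLR3-KO control 1 and 0.25 without TLR3-KO control 3. Of 1431 refitted values of 76 named genes, 997 kept their side of the threshold and direction, 352 lost the call and 74 gained it. Fold changes of genes under 1 CPM rest on few counts.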
